A study of Homo sapiens with 12 samples.

Results

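The genes described here are 33 genes of sterol and fatty acid synthesis, chosen by name from the 33514 gene symbols of 3 single-cell count matrices. They comprise 19 genes of the route from acetyl-CoA to cholesterol, with GGPS1 on a branch of it. The others are 6 genes that control that route or carry its products, and 8 genes of fatty acid synthesis. All 33 were among the 17897 genes with enough counts to be tested, with between 92 UMIs (CYP51A1) and 36210 UMIs (FDPS) in a sample. UMIs are the molecular tags that mark single captured RNA molecules.

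Single-cell RNA was measured in SCC1, SCC6 and SCC25, each an established line from a squamous carcinoma of the head and neck (HNSCC), after treatment with cetuximab, a therapeutic antibody against the EGF receptor (EGFR). Cells received 100 nM cetuximab each day for 5 days, or PBS for the same time (untreated cells), in DMEM and Ham's F12 with 10% fetal bovine serum. Each of the 6 groups held 2 samples, numbered replicate 1 and replicate 2. The 12 samples gave 961 to 2854 cells each and 23914 cells in all.

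Cells make cholesterol when sterols in the endoplasmic reticulum run low. The transcription factors SREBP1 and SREBP2, encoded by SREBF1 and SREBF2, are then carried by SCAP to the Golgi, cut, and sent to the nucleus, where they bind sterol regulatory elements near the genes of sterol and fatty acid synthesis. INSIG1 and INSIG2 hold the complex back when sterols are plentiful, and growth factor signalling through AKT and mTORC1 also raises SREBP activity. Serum lipoproteins in the culture medium supply cholesterol from outside.

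To show the kind of sequence these factors read, promoters were taken from RefSeq (GRCh38.p14), each 300 bases long with 250 before the start of transcription and 50 after it. Of the 33 members 29 matched, with 42 promoters. The core of the sterol regulatory element was searched on both strands as CACNCCAC, together with CCAAT, the letters bound by the partner factor NF-Y, and GGGCGG, the letters bound by Sp1. The 3 stretches below lie entirely upstream of every listed start of their gene, hold both a CACNCCAC match and a CCAAT match, and are shown with both matches in capitals, in the direction of transcription. INSIG1 lies on the plus strand at chr7:155297660-155297722, SCD at chr10:100347037-100347136 and SREBF2 at chr22:41832963-41833013, also on the plus strand.
INSIG1: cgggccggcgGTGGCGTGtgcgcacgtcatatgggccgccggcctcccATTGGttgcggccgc
SCD: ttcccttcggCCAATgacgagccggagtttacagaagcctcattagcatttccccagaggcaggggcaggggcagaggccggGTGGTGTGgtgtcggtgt
SREBF2: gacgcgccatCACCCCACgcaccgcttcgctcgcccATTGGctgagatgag

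In INSIG1 and SCD the 8-letter match lay on the opposite strand, and in SREBF2 it lay on the strand shown. CACNCCAC was found in 7 of the 42 member promoters (16.7%) and in 5.87% of all 35116 promoters in the table. The 7 promoters belong to 6 genes, because overlapping promoters of SC5D share the same match. CCAAT was found in 26 of the 42 (61.9%), beside 34.6% of all promoters, and GGGCGG in 37 of the 42 (88.1%), beside 45.0%. The longer form TCACNCCAC, which contains the 8-letter core, stood in 1 member promoter, that of SREBF2, and in 1.13% of all. These are matches of letters, and no binding was measured in these files.

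Untreated cells of the 3 lines differed in the level of many of these genes, as they did in most genes tested. Levels are given as CPM, the counts of a sample scaled to a common library total, after TMM normalisation, and since the assay counts 3′ ends, they are compared here between samples and not between genes. In an F-test over the untreated samples of the 3 lines (edgeR, adjusted p under 0.05), 23 of the 33 members differed, beside 59.5% of all genes tested. They were 10 of 19 sterol synthesis genes, 5 of 6 control and transport genes and 8 of 8 fatty acid synthesis genes. Between SCC6 and SCC1 12 members differed, beside 40.2% of all genes. SCC25 differed from SCC1 in 19 members (40.8% of all genes) and from SCC6 in 18 (40.9%).

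SCC25 was the line with the lowest untreated mean for 24 of the 33 members, while 31.7% of all genes tested had their lowest mean there. SCC6 had the highest mean for 16 members and SCC1 for 14, leaving 3, PMVK, GGPS1 and SREBF1, that were highest in SCC25. Of all genes, 33.3% were highest in SCC6, 32.8% in SCC1 and 33.9% in SCC25. The heat map of every member by sample shows this as mostly blue columns for SCC25.

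**Figure D1:**
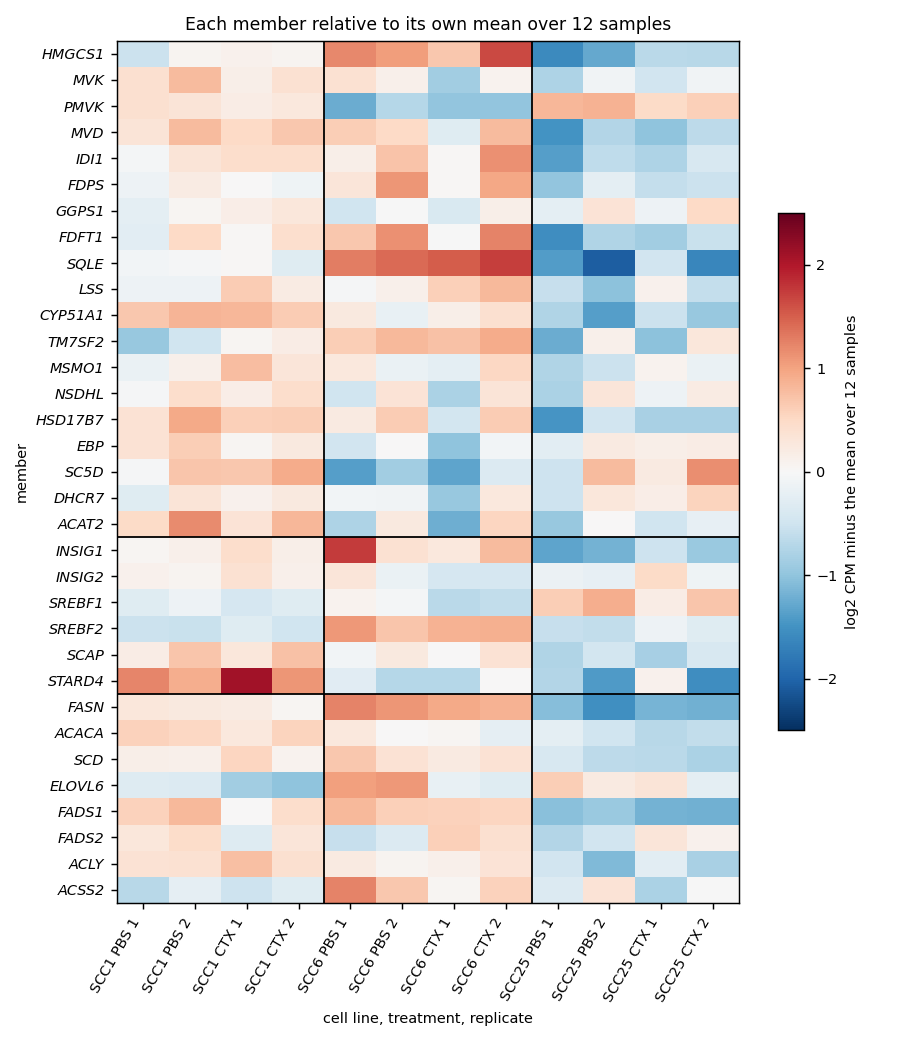
Log2 CPM of each of the 33 members (vertical axis) in each of the 12 samples (horizontal axis: line, treatment, replicate), minus the gene's mean over the 12 samples; red is above and blue is below that mean, and black lines separate the cell lines and the groups of members. Most members are blue in SCC25, while HMGCS1, SQLE, SREBF2 and FASN are red in SCC6.

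SQLE, the squalene epoxidase that makes the first oxygenated step of the route, showed the largest ratio, with a mean 8.24 times as high in untreated SCC6 as in SCC25. It measured 269 and 296 CPM in the PBS samples of SCC6, 105 and 109 in SCC1, and 42.1 and 26.6 in SCC25. No sample of 1 line overlapped another, and all 3 pairs of lines differed (edgeR log2 differences of 1.40 ± 0.35 (SE) for SCC6 over SCC1, adjusted p = 0.00929; -1.64 ± 0.35 for SCC25 over SCC1, adjusted p = 0.00423; and -3.04 ± 0.37 for SCC25 over SCC6, adjusted p = 0.000152). HMGCS1, the synthase that makes HMG-CoA, followed the same order, with 64.7 and 57.8 CPM in SCC6, 19.4 and 29.4 in SCC1, and 9.33 and 11.7 in SCC25. Its difference between SCC25 and SCC6 was -2.54 ± 0.33 (edgeR adjusted p = 0.000221). The excess of SCC6 over SCC1 missed the threshold for SQLE without either PBS sample of SCC1 (log2 differences of 1.37 and 1.43), and for HMGCS1 without replicate 1 of that group (1.05). FASN, the fatty acid synthase, stood at 62.4 ± 4.14 CPM (SD, n = 2) in SCC6, 33.3 ± 0.743 in SCC1 and 11.4 ± 2.55 in SCC25, and SCC25 was lower than SCC6 by a log2 difference of -2.45 ± 0.21 (edgeR adjusted p = 1.53e-05).

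SREBF2, which encodes the SREBP that acts mainly on sterol genes, was high in SCC6 alone. It measured 35.9 and 27.6 CPM in SCC6, 11.7 and 11.5 in SCC1, and 11.4 and 11.1 in SCC25, so that both other lines were lower than SCC6 (edgeR adjusted p = 0.000281 for SCC1 and 0.000256 for SCC25) while the log2 difference between SCC25 and SCC1 was -0.05 ± 0.19 (adjusted p = 0.871; 0.14 in cells with no UMI of MKI67 or TOP2A). SREBF1 ran the other way, with 22.5 and 27.4 CPM in SCC25 against 11.8 and 13.4 in SCC1 and 15.6 and 14.1 in SCC6. Its log2 level was higher in SCC25 than in SCC1 by 0.98 (edgeR adjusted p = 0.00532) and than in SCC6 by 0.75 (adjusted p = 0.0196). The gene tables do not separate the SREBP1a and SREBP1c transcripts of SREBF1.

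FADS1, the delta-5 desaturase that helps make long polyunsaturated fatty acids, was low in SCC25 only. It stood at 71.8 ± 8.27 CPM (SD, n = 2) in SCC1, 72.3 ± 7.39 in SCC6 and 22.2 ± 1.3 in SCC25, a log2 difference of -1.70 ± 0.20 between SCC25 and SCC6 (edgeR adjusted p = 0.000137). PMVK, the phosphomevalonate kinase, broke the general order, with its lowest level in SCC6. It measured 20.7 and 29.5 CPM in SCC6, 63.9 and 60.9 in SCC1, and 86.4 and 88.7 in SCC25, and SCC25 exceeded SCC6 by 1.80 ± 0.20 (edgeR adjusted p = 9.8e-05). SC5D, the lathosterol oxidase, was likewise low in SCC6 (9.05 and 13.0 CPM, against 23.1 and 37.9 in SCC1), a difference of -1.47 on the log2 scale (edgeR adjusted p = 0.0377), although its F-test over the 3 lines just missed the threshold.

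INSIG1 made 1 untreated sample stand apart. The PBS sample of SCC6 numbered replicate 1 held 95.1 CPM, whereas replicate 2 held 36.8, and SCC1 measured 29.3 and 30.8 and SCC25 11.2 and 12.4. INSIG2 did not pass the F-test (edgeR adjusted p = 0.533). The genes of the sterol route furthest from the threshold were DHCR7, NSDHL, GGPS1, EBP and ACAT2 (adjusted p between 0.114 and 0.947), with ratios of the highest over the lowest line mean of 1.09, 1.29, 1.24, 1.64 and 2.40. LSS, MVK, MSMO1 and SC5D also missed the threshold of the 3-line F-test, with adjusted p between 0.0511 and 0.102.

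In fits without regard to the replicate number, few members passed a test of the change with cetuximab. Few or no genes of any kind passed in SCC1 and SCC25, so these counts do not measure the size of a change. In SCC1, edgeR called 0 of the 33 members, beside 0.0168% of all genes, and 2 had an unadjusted p under 0.05, with 0 called by DESeq2. In SCC6 it called 1 member, ELOVL6 (3.81% of all genes). In SCC25 it called 0 members and 0 genes in all (0%); 2 members had an unadjusted p under 0.05, and DESeq2 also called 0 members there. In the fit across the 3 lines 2 members passed, ELOVL6 and LSS, beside 3.67% of all genes.

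Samples with the same replicate number deviated together in each line, so the number was also fitted as a block. With that block, 1 member passed in SCC1 (TM7SF2, beside 4.45% of all genes), 4 in SCC6 (ELOVL6, FADS2, SREBF1 and LSS, beside 20.1%), 0 in SCC25 (0.978%) and 4 across the lines (ELOVL6, LSS, SREBF1 and SC5D, beside 11.6%). Within SCC1, SCC6 and SCC25 the share of members called was thus near or below the share of all genes called. With the block this also held across the lines. In SCC25 the blocked edgeR fit left 9 members with an unadjusted p under 0.05. Here and elsewhere, counts at an unadjusted p are given without the share of all genes at that level. They are therefore not read as a result about the members.

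**Figure D2:**
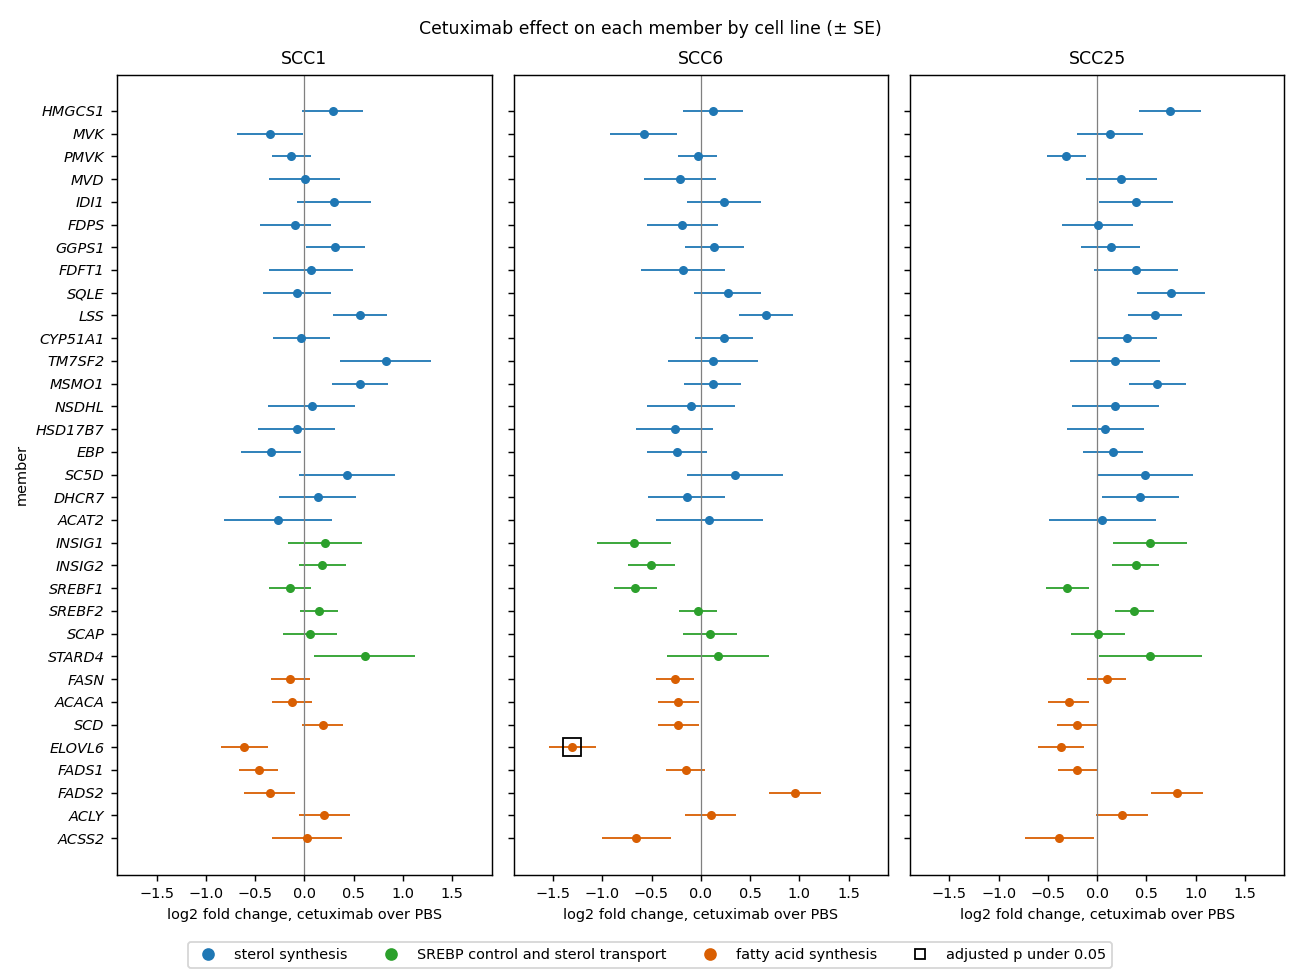
Log2 fold change of cetuximab over PBS (horizontal axis, bars are ± 1 SE from edgeR without the block, 2 samples per group) for each member (vertical axis) in SCC1, SCC6 and SCC25; colours mark the 3 groups of members and a square marks an adjusted p under 0.05. The single square is ELOVL6 in SCC6, at -1.31.

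ELOVL6, the elongase that lengthens palmitate towards stearate, fell in SCC6. It measured 16.9 and 17.5 CPM in the PBS samples and 7.25 and 6.66 CPM with cetuximab, so the groups did not overlap. The log2 fold change was -1.31 ± 0.24 (edgeR adjusted p = 0.0186; 0.00118 with the block, and 1.19e-05 by DESeq2). In SCC1 the gene measured 6.62 and 6.56 CPM without and 4.53 and 4.10 CPM with cetuximab, again without overlap, at -0.61 ± 0.24 (edgeR adjusted p = 0.491, and 0.050 with the block, just above the threshold). SCC25 gave 12.6 and 9.61 CPM without and 10.4 and 6.94 CPM with cetuximab, where the groups overlapped (-0.36 ± 0.23, edgeR adjusted p = 0.961).

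Across the 3 lines ELOVL6 fell by 0.76 ± 0.17 on the log2 scale (edgeR adjusted p = 0.0338; 0.021 with the block), and it was lower with cetuximab in 6 of 6 pairs of equal number. The difference between the lines in this effect did not pass the interaction test (edgeR adjusted p = 0.658, and 0.0969 with the block). Without the block that test called 0 genes in all. Across the lines the call was lost in 10 of 12 fits that each left out 1 sample (adjusted p from 0.0171 to 0.0931). The call in SCC6 was lost without replicate 1 of its PBS samples (adjusted p = 0.113) and without replicate 1 or replicate 2 of its cetuximab samples (0.119 and 0.0809), at log2 fold changes of -1.25 to -1.37 over all such fits.

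ELOVL6 was more abundant in cells that carried a UMI of the proliferation genes MKI67 or TOP2A. After thinning, the ratio of its mean UMIs in cells with to cells without such a UMI was above 1 in 12 of 12 samples, with a median of 1.38 (range 1.12 to 2.43). The 20 genes of a proliferation list summed to 2493 and 2920 CPM in untreated SCC1 and 952 and 1827 with cetuximab. The sums were 2063 and 3459 against 1955 and 2603 in SCC6, where the groups overlapped, and 1857 and 2131 against 1637 and 1515 in SCC25. Of these 20 genes 2, BUB1 and TPX2, fell across the lines without the block (3.67% of all genes passed there) and 15 fell with it (11.6%). Within a line and with the block, 17 fell in SCC1, where 4.45% of all genes passed, and 6 in SCC6, where 20.1% passed. When the SCC6 test was repeated on cells with no UMI of MKI67 or TOP2A, ELOVL6 fell by 1.24 on the log2 scale (edgeR adjusted p = 0.0351), close to its change in all cells. Such cells were 26.4% and 19.1% of the untreated and 44.0% and 28.4% of the treated SCC6 samples. Lack of these UMIs does not show that a cell was not cycling, and the part of proliferation in the fall was not tested.

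LSS, which folds oxidosqualene into lanosterol, rose across the lines by 0.61 ± 0.15 on the log2 scale (edgeR adjusted p = 0.043; 0.0101 with the block) and was higher in 6 of 6 pairs. It measured 8.09 and 8.09 CPM without and 13.7 and 10.2 CPM with cetuximab in SCC1. In SCC6 it measured 8.71 and 9.63 against 13.4 and 15.6, and in SCC25 5.96 and 4.33 against 9.57 and 5.87. The groups were apart in SCC1 and SCC6 and overlapped in SCC25. The log2 fold changes, 0.57, 0.66 and 0.59, were alike in size, but only that of SCC6 passed within a line, and only with the block (edgeR adjusted p = 0.0209, against 0.215 without). In cells with no UMI of MKI67 or TOP2A the change across the lines was 0.55 (edgeR adjusted p = 0.0953), which missed the threshold. The call was also lost in 9 of 12 fits that each left out 1 sample, where the adjusted p ran from 0.0318 to 0.112.

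**Figure D3:**
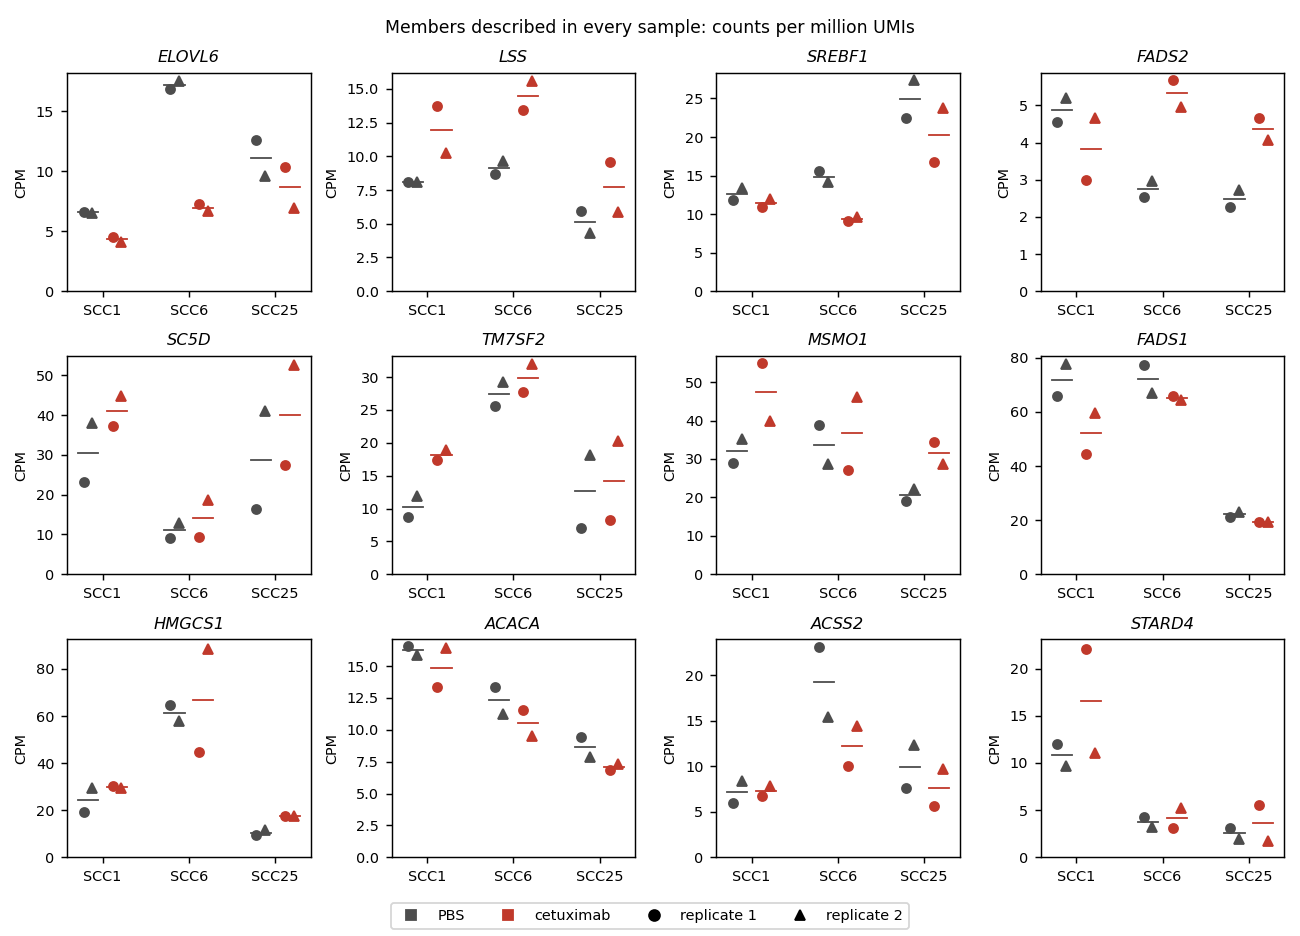
CPM (vertical axes, from 0) in each sample of the 12 members described in every sample, by cell line (horizontal axes); grey is PBS, red is cetuximab, circles are replicate 1, triangles are replicate 2 and bars are means of 2 samples. ELOVL6 lies lower and LSS higher with cetuximab in each pair of equal number, while FADS2 lies lower in SCC1 and higher in SCC6 and SCC25.

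SREBF1 was lower with cetuximab in 6 of 6 pairs. In SCC6 it measured 15.6 and 14.1 CPM without and 9.12 and 9.59 CPM with cetuximab, with no overlap. The change of -0.67 ± 0.22 missed the threshold without the block (edgeR adjusted p = 0.122) and passed with it (-0.67, adjusted p = 0.0124) and with DESeq2 (adjusted p = 0.0362). SCC1 gave 11.8 and 13.4 against 10.9 and 11.9 CPM. SCC25 gave 22.5 and 27.4 against 16.7 and 23.7, and in both lines the groups overlapped. Across the lines the change was -0.37 ± 0.13 (edgeR adjusted p = 0.129, and 0.0488 with the block).

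FADS2, the delta-6 desaturase, moved in different directions. It measured 2.53 and 2.96 CPM without and 5.69 and 4.96 CPM with cetuximab in SCC6, and 2.27 and 2.71 against 4.66 and 4.08 CPM in SCC25, with both lines free of overlap. SCC1 gave 4.56 and 5.21 CPM without and 3.00 and 4.65 CPM with cetuximab, which overlapped. The log2 fold changes were 0.95 ± 0.26 in SCC6 (edgeR adjusted p = 0.075; 0.0171 with the block, 0.0101 by DESeq2), 0.81 ± 0.26 in SCC25 (adjusted p = 0.64) and -0.35 ± 0.26 in SCC1 (adjusted p = 0.825). The difference between lines did not pass the interaction test (edgeR adjusted p = 0.481, 0.0969 with the block). Over all members, the interaction test called 0 of 33 without the block (0% of all genes) and 0 with it (1.29%). At an unadjusted p under 0.05 there were 2 and 5 members, again without the share of all genes at that level. DESeq2 called 0 members.

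TM7SF2, a sterol C14 reductase, was higher with cetuximab in 6 of 6 pairs. Its rise in SCC1, from 8.65 and 11.9 CPM to 17.4 and 19.0 CPM, passed only with the block (0.84 ± 0.13, edgeR adjusted p = 0.0161; 0.83 ± 0.46 and 0.699 without). SCC6 gave 25.6 and 29.2 against 27.8 and 31.9 CPM, and SCC25 gave 7.04 and 18.2 against 8.20 and 20.3 CPM. In SCC25 the replicates of each arm were further apart than the arms. Unlike ELOVL6, TM7SF2 was less abundant in cells with an MKI67 or TOP2A UMI in 12 of 12 samples, with a median ratio of 0.557. Restricting the SCC1 test to cells without such a UMI gave a log2 change of 0.59 (edgeR adjusted p = 0.898, no block).

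SC5D showed the same arrangement. It measured 23.1 and 37.9 CPM without and 37.4 and 44.8 CPM with cetuximab in SCC1, 9.05 and 13.0 against 9.40 and 18.6 CPM in SCC6, and 16.4 and 41.0 against 27.5 and 52.6 CPM in SCC25. Within each number the cetuximab sample was the higher, yet the arms overlapped in all 3 lines. Across the lines the change was 0.42 ± 0.26 without the block (edgeR adjusted p = 0.388) and 0.44 ± 0.10 with it (adjusted p = 0.0328).

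None of the other 6 members with the smallest p across the lines passed any cetuximab test, with or without the block. MSMO1, the C4-methyl sterol oxidase, gave 29.0 and 35.1 CPM without and 54.9 and 39.9 with cetuximab in SCC1, and 19.2 and 22.1 against 34.4 and 28.8 in SCC25, both without overlap. In SCC6 its arms overlapped, at 38.7 and 28.7 against 27.2 and 46.1. Its change across the lines was 0.43 ± 0.16 (edgeR adjusted p = 0.155).

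HMGCS1 gave 9.33 and 11.7 CPM without and 17.7 and 17.4 with cetuximab in SCC25, which did not overlap, at 0.74 ± 0.31 (edgeR adjusted p = 0.814). In SCC1 its values were 19.4 and 29.4 against 30.2 and 29.5, so that the nearest samples of the arms were almost equal. SCC6 spanned 57.8 to 64.7 CPM without and 44.9 to 88.6 with cetuximab, a wide spread within the treated arm. FADS1 was lower with cetuximab in 6 of 6 pairs, with 65.9 and 77.6 against 44.6 and 59.6 CPM in SCC1, 77.5 and 67.1 against 65.7 and 64.4 in SCC6, and 21.3 and 23.1 against 19.4 and 19.2 in SCC25. All 3 lines were free of overlap, but the change of -0.27 ± 0.11 did not pass (edgeR adjusted p = 0.185, and 0.0677 with the block). FADS1 was also more abundant in cells with an MKI67 or TOP2A UMI in 12 of 12 samples, with a median ratio of 1.27.

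ACACA, the acetyl-CoA carboxylase that makes malonyl-CoA, gave 9.41 and 7.89 CPM without and 6.87 and 7.30 with cetuximab in SCC25, free of overlap. In SCC1 and SCC6 its arms overlapped, at 16.6 and 15.9 against 13.4 and 16.4 CPM and at 13.4 and 11.3 against 11.5 and 9.48. ACSS2, which turns acetate into acetyl-CoA, measured 23.1 and 15.5 CPM without and 10.0 and 14.5 with cetuximab in SCC6, without overlap, at -0.65 ± 0.35 (edgeR adjusted p = 0.336). SCC1 (5.98 and 8.35 against 6.74 and 7.87) and SCC25 (7.65 and 12.3 against 5.64 and 9.65) overlapped. STARD4, a carrier of cholesterol between membranes, reached 22.1 CPM in replicate 1 of SCC1 with cetuximab, beside 11.1 in replicate 2, and 12 and 9.67 in the PBS samples. Its levels lay between 1.76 and 5.60 CPM in SCC6 and SCC25, where the arms overlapped.

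The remaining members are given by group. Of the 19 sterol synthesis genes, 11 had a log2 fold change above 0 in SCC1, 10 in SCC6 and 18 in SCC25, with medians of 0.07, 0.08 and 0.25 beside medians of 0.00, 0.00 and -0.01 over all genes tested. PMVK was the exception in SCC25. Of the early genes, ACAT2 (which condenses acetyl-CoA), MVK and MVD (mevalonate kinase and decarboxylase), IDI1 (the isomerase of isopentenyl diphosphate), FDPS (farnesyl diphosphate synthase) and GGPS1 (the synthase of geranylgeranyl diphosphate) passed no cetuximab test. Nor did the later genes FDFT1 (squalene synthase), SQLE, CYP51A1 (lanosterol demethylase), NSDHL and HSD17B7 (which act in removing the C4 methyl groups), EBP (the sterol isomerase) and DHCR7 (the last reductase of its branch). FDPS and HSD17B7 have near-identical copies in the genome, and how reads shared with them were counted is not given in the sources used here.

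Among the 6 control and transport genes, INSIG1, INSIG2, SREBF2, SCAP and STARD4 passed in no line. INSIG1 showed 11.2 and 12.4 CPM without and 19.6 and 14.7 with cetuximab in SCC25, and 95.1 and 36.8 against 34.0 and 48.5 in SCC6, a comparison that rests on the 1 high PBS sample. INSIG2 had both cetuximab samples below both PBS samples in SCC6 (29.5 and 21.2 against 17.9 and 17.9) and above them in SCC25 (21.5 and 20.7 against 33.1 and 22.2). The opposite signs did not pass the interaction test (edgeR adjusted p = 0.702, and 0.196 with the block). Of the 8 fatty acid genes, 3 had a log2 fold change above 0 in SCC1, 2 in SCC6 and 3 in SCC25, with medians of -0.13, -0.23 and -0.20. FASN, SCD (the stearoyl-CoA desaturase) and ACLY (which makes cytosolic acetyl-CoA from citrate) passed no cetuximab test.

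Counted by overlap of samples, members that lay higher with cetuximab were less common than among all genes in SCC6 and more common in SCC1 and SCC25, and these differences were not tested. Both cetuximab samples lay above both PBS samples for 10 of 33 members in SCC1 (22.3% of all genes), 3 in SCC6 (25.5%) and 6 in SCC25 (14.4%). They lay below both for 6 members in SCC1 (20.4% of all genes), 8 in SCC6 (21.4%) and 4 in SCC25 (15.3%). As percentages of the members these were 30.3%, 9.09% and 18.2% above and 18.2%, 24.2% and 12.1% below. Higher in 6 of 6 pairs were 4 members, GGPS1, LSS, TM7SF2 and SC5D (12.1%, beside 10.5% of all genes), and lower in 6 of 6 were 3, SREBF1, ELOVL6 and FADS1 (9.09%, beside 10.6%).

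Among the sterol genes the median difference between replicate numbers was larger than the median change with cetuximab in each line. The median log2 difference of replicate 2 over replicate 1 among the 19 sterol synthesis genes was 0.39 in untreated and 0.11 in treated SCC1. In SCC6 it was 0.40 and 0.96, and for SCC25 it was 0.73 and 0.29. Over all genes tested the same medians lay between -0.05 and 0.00. Of the 19 genes, replicate 2 was the higher for 17 untreated and 12 treated in SCC1. For SCC6 these counts were 13 and 19, and for SCC25 they were 16 and 14. The 8 fatty acid genes did not share this, with medians between -0.25 and 0.04.

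FDPS showed it plainly, with 226 and 394 CPM in the PBS samples of SCC6 and 186 and 358 CPM in the cetuximab samples. ACAT2 measured 51.7 and 103 CPM without and 37.6 and 127 CPM with cetuximab in the same line, and 45.6 and 88.6 against 62.5 and 76.6 in SCC25. In these examples the arms overlap and the samples numbered 2 are the high ones. The labels do not say what the replicate number stands for, and its part in these differences was not tested.

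**Figure D4:**
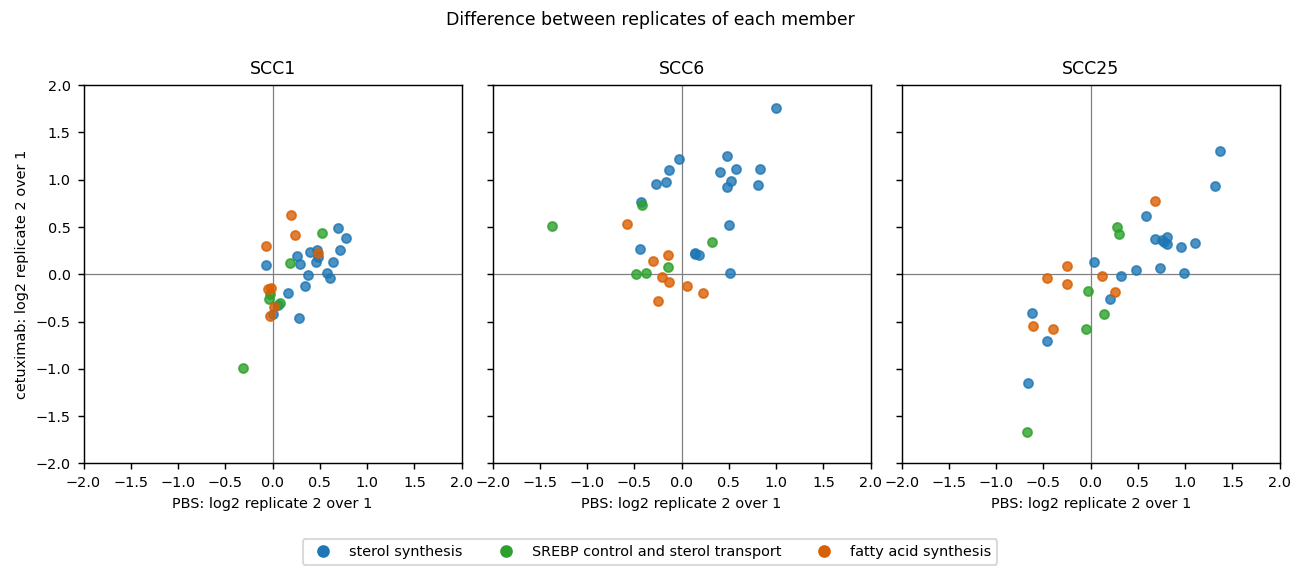
Log2 difference of replicate 2 over replicate 1 of each member in the PBS samples (horizontal axis) and in the cetuximab samples (vertical axis) of SCC1, SCC6 and SCC25; colours mark the 3 groups of members. Sterol synthesis genes lie mostly above and to the right of 0, with 19 of 19 above 0 in the cetuximab samples of SCC6, and fatty acid genes lie around 0.

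Single cells were compared after drawing 15000 UMIs from each cell, which kept 23063 cells and left out 851 shallower ones (0.847% to 9.18% of a sample). The 19 sterol synthesis genes together gave a median of 15 and 18 UMIs per cell in untreated and 17 and 17 in treated SCC1. SCC6 gave 12 and 18 without and 13 and 23 with cetuximab, and SCC25 gave 7 and 10 against 10 and 11. Cells ranged widely within a sample, from 6 UMIs at the 10th to 26 at the 90th percentile in the PBS sample of SCC6 numbered 1. The 8 fatty acid genes gave medians of 3 or 4 UMIs in SCC1 and SCC6 and 1 or 2 in SCC25.

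**Figure D5:**
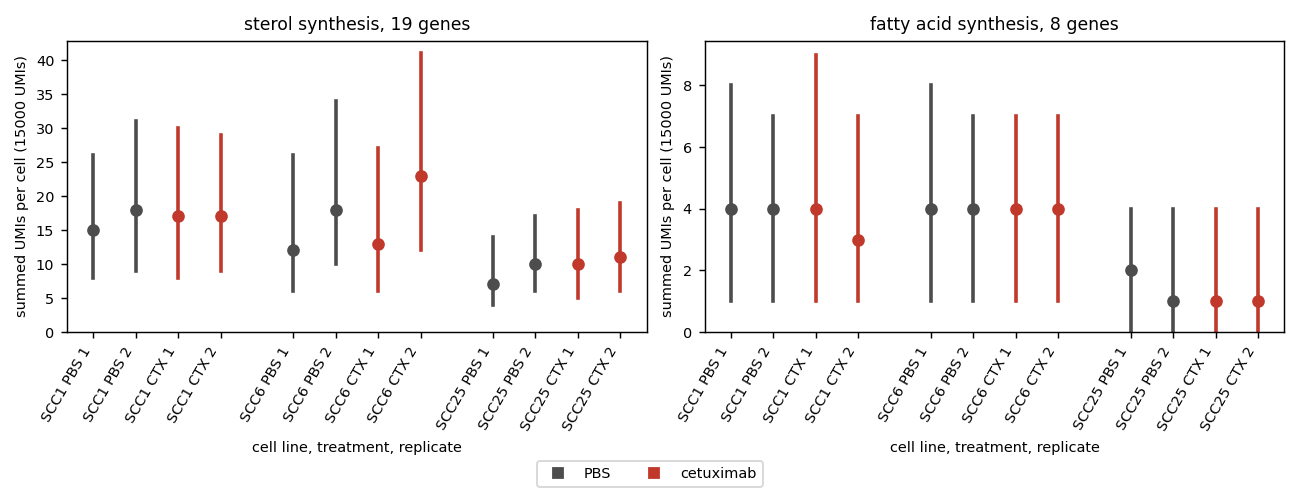
Summed UMIs per cell of the 19 sterol synthesis genes (left) and the 8 fatty acid synthesis genes (right) after thinning each cell to 15000 UMIs (vertical axes), by sample (horizontal axes); points are medians over cells, lines run from the 10th to the 90th percentile, grey is PBS and red is cetuximab. SCC25 samples sit lowest in both panels.

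At this depth ELOVL6 had a UMI in 19.5% (95% exact binomial interval 18.0% to 21.1%) and 20.9% (19.3% to 22.6%) of untreated SCC6 cells, and in 9.65% (8.54% to 10.9%) and 10.5% (9.05% to 12.1%) of treated cells. Without thinning the shares were 36.1% and 44.1%, against 16.8% and 28.4%. FADS2 had a UMI in 2.94% (2.33% to 3.66%) and 4.19% (3.43% to 5.06%) of untreated SCC6 cells after thinning, and in 8.33% (7.30% to 9.46%) and 7.26% (6.05% to 8.63%) of treated ones. In both genes the intervals of the treated and untreated samples did not overlap, and the intervals cover counting error only. ALB, HBB, PTPRC and CD3E, which these cells should lack, had a UMI in no more than 0.137% of cells in every sample.

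The members also differed in how evenly cells expressed them. The variance of thinned UMIs over their mean, which is 1 for pure counting noise, had a median over samples of 2.29 for SQLE and 2.14 for SCD, and lay near 1 for ELOVL6 (1.05), ACACA (1.04) and INSIG2 (1.03). SCD, which makes monounsaturated fatty acids, stood at 3.40 and 5.10 in treated SCC1, against 2.04 and 1.96 untreated. The highest cell held 66 SCD UMIs there, in replicate 2, against 23 in treated replicate 1 and 12 and 16 in the untreated samples. The top 1% of cells carried 12.6% of all SCD UMIs in treated replicate 2. That 1 cell weighs heavily on the 5.10, and the ratio was not computed without it. The mean level of SCD over cells was 1.66 and 1.14 UMIs treated, against 1.20 and 1.04 untreated. Treated replicate 1 thus also had a higher mean than both untreated samples.

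HMGCS1 and INSIG1 were most uneven in the PBS sample of SCC6 numbered 1, at 3.42 each, where their medians over samples were 1.61 and 1.48. It is the same sample in which INSIG1 stood apart in CPM. HMGCS1 and SQLE varied together over cells of all 3 lines. In SCC6 the Pearson correlations were 0.556 and 0.373 over 2652 and 2436 untreated cells and 0.424 and 0.449 over 2592 and 1639 treated cells. They were 0.259 and 0.374 in untreated and 0.376 and 0.368 in treated SCC25. For SCC1 they were 0.17 and 0.17 untreated and 0.34 and 0.27 treated. The other pairs computed were mostly weaker. HMGCS1 and INSIG1 correlated at 0.12 to 0.27 over the samples, and HMGCS1 and IDI1 at 0.13 to 0.35. Cells of a sample share its library and, here, their total of UMIs. The variance of the summed sterol genes was 2.06 to 3.07 times the sum of their single variances, a ratio that is 1 for genes that vary independently, and 1.22 to 1.51 times for the fatty acid genes, which are fewer. For the 20 proliferation genes it was 5.00 to 8.37.

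Position in the cell cycle went with some members and not with others. ACAT2, EBP and FDPS were more abundant in cells with an MKI67 or TOP2A UMI in 12 of 12 samples, with median ratios of 1.55, 1.29 and 1.23. MSMO1 was less abundant in 12 of 12 samples (median 0.737), and SCD, LSS and SC5D in 11 of 12, with medians of 0.629, 0.804 and 0.797. The same held in 11 of 12 for FASN, SREBF2, STARD4 and ACSS2, with medians of 0.878, 0.869, 0.792 and 0.801. The sum of the sterol genes had a median ratio of 1.07 and that of the fatty acid genes 0.913. The share of cells without such a UMI before thinning ran from 17.7% to 64.0% of a sample.

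Genes of the same pathway that are not members were counted from lists. Of all genes tested, 3.81% passed in SCC6 and 3.67% across the lines without the block, and 4.45% in SCC1, 20.1% in SCC6, 0.978% in SCC25 and 11.6% across the lines with it. A list of 9 genes was headed SREBP cleavage and INSIG turnover. Of these, SEC24D, a coat protein of vesicles that leave the endoplasmic reticulum, rose in SCC6 (1.08 ± 0.25, edgeR adjusted p = 0.0439). It also rose across the lines (0.73 ± 0.15, edgeR adjusted p = 0.0252). In SCC6 it measured 8.76 and 6.74 CPM without and 17.1 and 15.7 with cetuximab. With the block, MBTPS1 (the site-1 protease that cuts SREBPs) and SEC23A also rose across the lines, by 0.36 and 0.32. UBXN8 fell in SCC6 by 0.96 with the block, but it is not an established gene of INSIG turnover, although it was put on this list. Of 6 genes of the LXR nuclear receptor and its targets, NR1H3, which encodes LXR alpha, fell in SCC6 from 11.9 and 12.8 to 6.22 and 6.05 CPM (-1.01 ± 0.22, edgeR adjusted p = 0.0323). MYLIP passed only with the block, in SCC25 (-0.83, edgeR adjusted p = 0.0457) and across the lines (-0.53, adjusted p = 0.0227).

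The next lists held shares near or below those of all genes in SCC6 with the block (20.1%). Of 12 other SREBP-responsive genes, 2 passed, with the block only: MID1IP1, which helps acetyl-CoA carboxylase polymerise, fell in SCC6 by 0.93 and across the lines by 0.53, and TMEM97 fell in SCC1 by 0.75. Of 7 genes of sterol uptake, storage and binding, LRP8 alone passed, with the block and in SCC6 (-0.75, edgeR adjusted p = 0.0354). Of 11 genes of fatty acid oxidation, 4 passed with the block only: ETFB and CPT2 fell in SCC6 by 0.66 and 0.56, ECI1 fell across the lines by 0.31 and SLC25A20 rose across them by 0.52.

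The samples as a whole held 57057402 to 1.12e8 UMIs each, with medians of 24079 to 54864 UMIs per cell. Samples of different groups shared 1 to 13 cell barcodes, and replicates of a group 3 to 10. Of 8 squamous epithelial markers, KRT5 and KRT14 were near 0 in SCC6 (at most 4.47 and 2.52 CPM), while KRT17, SFN, DSP and PERP were present in all 3 lines. KRT6A measured 23.9 and 17.6 CPM in untreated and 2.86 and 3.99 CPM in treated SCC6. It lay between 31.5 and 44.5 CPM in SCC1 and at 822 CPM or more in SCC25. TP63 lay between 6.81 and 21.5 CPM in SCC6. The 12 markers of stroma, endothelium and blood summed to 11.3 to 29.9 CPM in SCC1 and SCC6 and 182 to 225 CPM in SCC25, mostly CD68. In SCC6, COL1A1 and COL3A1 rose with cetuximab (edgeR adjusted p = 0.0063 and 0.0214) and CD68 fell (0.0202); the part of such genes in the differences above was not tested. In sums over cells, fewer cells expressing a gene and less RNA per cell cannot be told apart. The labels do not say whether replicates were separate cultures, so p-values measure the spread between these samples.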

How the data were processed

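The authors deposited single-cell UMI counts per gene and cell, 1 matrix for each line. Their processing notes name Cell Ranger and GRCh38; a version is not given in the sources used here. Counts were summed per sample over all deposited cells, with no further cell filter and no doublet removal. Genes were filtered with filterByExpr and tested with edgeR 4.0.16 (TMM factors, quasi-likelihood F-tests, 6 group means; line plus treatment for the test across lines), with Benjamini-Hochberg adjustment over 17897 genes and a threshold of 0.05. The fits were tested on simulated data. The labels give replicate numbers only. Over all genes tested, same-numbered samples deviated together (Pearson r = 0.377, 0.349 and 0.598 in SCC1, SCC6 and SCC25), so blocked fits are given where they changed a call. DESeq2 1.42.0 was an alternative. CPM use TMM-scaled library sizes, except summed lists, which use plain totals. Members and lists were chosen with earlier results of these data known. Members called in any cetuximab test, with or without the block, and those with the next smallest p across lines, up to 12, were described in every sample, with the 6 of smallest p between untreated lines. Of related lists, up to 4 called genes were named.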

Additional observations from a re-analysis of the deposited data

How the results depend on the processing

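With the replicate number as a block, the members called went from 0 to 1 in SCC1, from 1 to 4 in SCC6 and from 2 to 4 across the lines, and the block changed no other cetuximab or interaction call among the members. The untreated lines were not fitted with the block. In SCC6 the count was 3 with the DESeq2 test and 0 in a fit of the line's 4 samples alone, and it ranged from 0 to 2 when each sample was left out in turn. Across the lines it was 1 in cells with no UMI of MKI67 or TOP2A, where LSS missed the threshold, and 0 to 1 when each sample was left out. Counts in SCC25, in the interaction and between untreated lines stayed within 1.5 times under the alternatives run. Under the alternatives run, the changes across the lines of the 12 members described in every sample kept their sign, as did their changes within a line that passed with or without the block and the differences that passed among the 6 members named between untreated lines. Some changes that passed in no fit turned in cells with no UMI of MKI67 or TOP2A, such as TM7SF2 in SCC6 (0.12 to -0.10) and ACSS2 in SCC1 (0.03 to -0.27). With 2 samples a group, leaving out 1 sample leaves an arm with 1, which is assumed to vary like the others. The cause of these shifts was not tested. For DESeq2, the fit of 1 line alone, the chosen cells and the fits without 1 sample, the share of all genes called is not given here. The counts of members called in those fits are therefore not read as a result about the members.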
